A study of Mus musculus with 12 samples.

Results

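The genes described here are mouse genes on a cDNA array that was hybridised with testis RNA. Their symbols name them for spermatogenesis or for expression in the testis. They were chosen by symbol alone, as those starting with Spata, Spag, Tex and a digit, Tsga, Tssk, Ropn1, Theg, Odf3, Odf4, Spert, Spatc, Tcte, Tcp10, Tcp11, Meig, Tsnax, Tspyl or Ccin, with Tex36 left out. The rule found 80 genes on 105 probes, among 9930 genes named on the array. Of the 80 genes, 74 had enough values to be tested. Odf3, Spata6, Tex44, Theg, Tspyl1 and Tssk1 did not.

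Testis RNA from 3 genotypes was compared on 12 arrays, each hybridised with a pair of RNA pools labelled with Cy5 and Cy3. Each pool held RNA of 3 males on a Castaneus background, and the pools came from Wobbler modifier mice (wr mod), Wobbler mice (wr) or wildtype mice (wt). Each of the 3 pairings was hybridised on 4 arrays, of which 2 carried the dyes exchanged. Wobbler is a recessive mutation of Vps54, a subunit of a complex that returns vesicles to the Golgi, and it is known for motor neuron loss and for males with round-headed, immotile sperm. The Wobbler modifier animals carry the Wobbler mutation too, as the label is read here, while the nature of the modifier and the age of the animals are in none of the sources used here. The labelling protocol speaks of hybridisation against pooled control RNA; the channel labels name the genotypes above instead and were followed. Separate pools for the 4 arrays of a pairing are not stated, so the p-values cover variation among arrays, part or all of which may be technical.

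Spermatogenesis turns stem cells into sperm through mitosis, meiosis and a long remodelling of the haploid spermatid, in which the nucleus condenses, the acrosome spreads over it and the tail is built. Many genes of the tail and the sperm head are transcribed only after meiosis, and the transcription factor CREM, which binds the cAMP response element (CRE), is known as a main activator of them. The symbols Spata, Spag and Tex were given for where a transcript or antigen was found, and so join spermatid genes to genes that work in most cells.

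The data are log2 ratios with the first-named genotype on top, so that a negative value means less RNA in the first-named genotype. This direction is likely rather than stated: it was taken from the titles of the arrays together with the customary order of Cy5 over Cy3. No intensities were used here, so no level of a gene can be given, the tissue could not be checked by the level of its markers, and ratios of different genes cannot be turned into an order of abundance. In a whole testis, fewer cells of a type and less RNA per cell cannot be told apart. The SE beside a gene comes from a limma fit of all 12 arrays with 1 mean per pairing and 1 dye term. A gene was called where its Benjamini-Hochberg adjusted p over all 14729 features tested was under 0.05.

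Before turning to the values, the sequences upstream of the genes that came closest to the threshold are shown. RefSeq promoter windows (GRCm38.p6, from 250 bases before the transcript start to 50 bases after it) were matched by symbol for 66 of the 80 genes. Of the genes with an adjusted p under 0.1 in either comparison with Wobbler modifier testis, a rule set after the values were seen, Ropn1 and Tssk2 are shown, and Tex13a and Tex43 are not. The full CRE, TGACGTCA, its first bases TGACG, which every full CRE also contains, and the TATA box TATAAA were searched on both strands. Neither of these 2 windows held any of them. Ccin, which codes for calicin of the cytoskeleton around the sperm head, is set beside them with its CRE in capitals, 42 bases before the start. The windows lie at chr16:34650961-34651260 (plus strand) for Ropn1, at chr16:17898387-17898686 (plus strand) for Tssk2 and at chr4:43983254-43983553 (plus strand) for Ccin.
Ropn1: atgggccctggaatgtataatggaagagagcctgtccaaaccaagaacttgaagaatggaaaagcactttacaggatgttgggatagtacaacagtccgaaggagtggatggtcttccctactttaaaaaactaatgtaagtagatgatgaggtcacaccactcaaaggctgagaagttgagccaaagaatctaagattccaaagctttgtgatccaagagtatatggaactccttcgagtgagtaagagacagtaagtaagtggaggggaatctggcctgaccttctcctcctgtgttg
Tssk2: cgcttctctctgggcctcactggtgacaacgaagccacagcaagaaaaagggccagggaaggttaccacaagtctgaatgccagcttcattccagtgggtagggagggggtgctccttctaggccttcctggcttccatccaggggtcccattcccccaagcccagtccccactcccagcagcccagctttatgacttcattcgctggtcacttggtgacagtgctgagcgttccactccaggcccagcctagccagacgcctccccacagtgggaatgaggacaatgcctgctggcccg
Ccin: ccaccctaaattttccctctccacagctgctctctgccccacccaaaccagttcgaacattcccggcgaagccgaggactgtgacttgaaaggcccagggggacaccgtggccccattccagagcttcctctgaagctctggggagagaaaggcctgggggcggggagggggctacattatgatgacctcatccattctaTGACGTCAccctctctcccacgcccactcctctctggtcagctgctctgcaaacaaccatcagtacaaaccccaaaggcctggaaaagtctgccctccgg
Among the 66 genes, 4 held the full CRE, namely Ccin, Spag4, Spag6l and Spata7, which is 6.06% against 2.03% of 27025 genes with a window. TGACG, with or without the rest of the CRE, was found in 27.3% of the 66 genes and 23.0% of all genes. The TATA box was found in 6.06% of the 66 genes and 15.7% of all genes. The 4 genes with a full CRE were not alike in their ratios of Wobbler modifier over wildtype, which were -0.63 for Spata7, -0.60 for Ccin, -0.09 for Spag4 and -0.08 for Spag6l, and none of them passed the test.

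The first comparison asked how Wobbler modifier testis differed from wildtype testis. Ropn1 and Tex13a fell in Wobbler modifier testis, and no gene of the set rose. These 2 calls are 2.7% of the 74 genes tested, against 0.699% of all 14729 features called lower. The called share for higher ratios was 0.0339% of all features, and for either direction it was 0.733%.
Ropn1 codes for ropporin, which binds the anchoring proteins of protein kinase A in the fibrous sheath of the sperm tail. Its log2 ratios of Wobbler modifier over wildtype were -0.773, -0.775, -1.131 and -0.827 on the 4 arrays. All 4 arrays were below 0 and 3 of them lay close together. The fitted ratio was -0.88 ± 0.15 (SE, 4 arrays), a 1.84-fold lower signal, with a limma adjusted p of 0.0313.
Tex13a is an X-linked gene of a family expressed in male germ cells. Its log2 ratios were -0.277, -0.347, -0.890 and -0.604. All 4 were below 0, and the 2 dye-exchanged arrays gave the lower values. The fitted ratio was -0.53 ± 0.10 (SE, 4 arrays), 1.44-fold lower, with a limma adjusted p of 0.0413.
Neither call survived the loss of any 1 of the 4 arrays of the pairing, where the adjusted p ran from 0.0963 to 0.224 for Ropn1 and from 0.0966 to 0.297 for Tex13a. The fit also takes its spread from the other pairings: Ropn1 lost its call without array 1 of Wobbler modifier over Wobbler (adjusted p = 0.0619) or array 4 of Wobbler over wildtype (0.0553), and Tex13a lost its call without any 1 of the 8 other arrays except array 2 of Wobbler over wildtype (0.0544 to 0.0770).

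**Figure D1:**
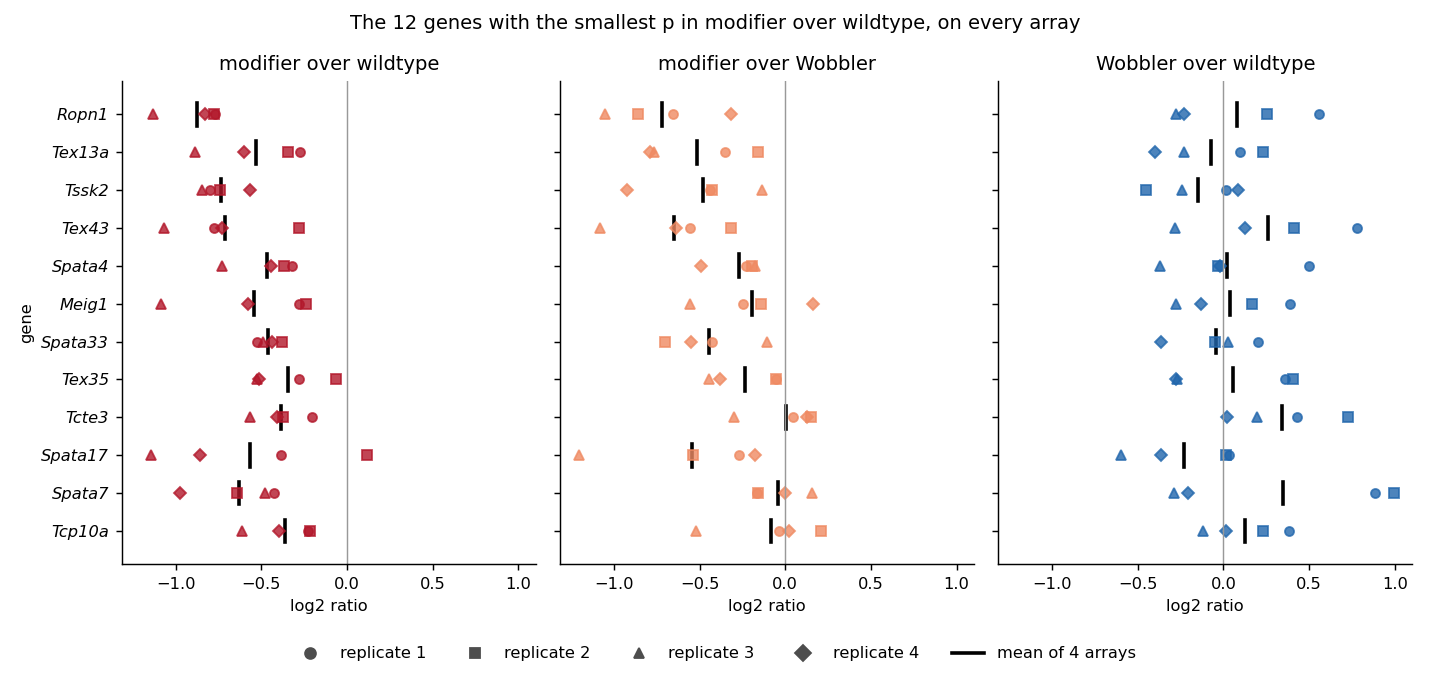
Log2 ratios of the 12 genes with the smallest p in Wobbler modifier over wildtype, shown for all 3 pairings on a shared log2 axis, with a symbol for each array and a black bar for the mean of 4 arrays. In the left panel the 4 arrays of Ropn1 lie between -1.131 and -0.773, while in the right panel, Wobbler over wildtype, they lie on both sides of 0.

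The spermatid kinases Tssk1 to Tssk6 are serine kinases made almost only in spermatids, and loss of Tssk1 and Tssk2 together, or of Tssk6, leaves male mice infertile. None of the 4 tested kinases passed the threshold. All 4 had ratios below 0 in Wobbler modifier over wildtype, against 47.5% of all features, with a median of -0.52. Tssk2 came closest, with -0.799, -0.740, -0.848 and -0.565. Its 4 arrays were closer together than those of Ropn1. The fitted ratio of Tssk2 was -0.74 ± 0.14 (SE, 4 arrays), with a limma adjusted p of 0.0560.
Tssk3 had -0.921, -0.518, -0.500 and -1.329, all below 0. Its spread over the other pairings was wide, so the fitted -0.82 had an SE of 0.80. Tssk6 had 3 arrays below 0 and a fitted ratio of -0.30. Tssk4, which is known to bind an outer dense fibre protein, had a fitted ratio of -0.28. Without array 4 the fit with its dye term gave -0.15, while the other arrays were at -0.049, 0.1 and -0.122. Tssk1 was not tested, because 2 arrays of Wobbler modifier over Wobbler had no value for it. On the 4 arrays of Wobbler modifier over wildtype it had -1.442, -0.490, -1.037 and -1.382, all below 0. Tssk1 and Tssk2 are close copies, and a cDNA probe of either may bind RNA of the other.

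The tail is built from the microtubule axoneme, the dynein arms that move it, the outer dense fibres, the fibrous sheath and the mitochondrial sheath. The group of the tail, sheath and axoneme held 27 tested genes. In Wobbler modifier over wildtype 23 of them had a ratio below 0, against 47.5% of all features. The test was passed by 1, Ropn1, against 0.699% of all features called lower. The median of the group was -0.28, against 0.01 over all features. Ropn1l, the close relative of Ropn1, had a ratio of -0.33 ± 0.14 and was not called (adjusted p = 0.616). Tex43, which codes for a protein inside the microtubules of the sperm axoneme, had -0.776, -0.281, -1.069 and -0.732. All 4 arrays were below 0, and its fitted ratio of -0.71 ± 0.14 missed the threshold (adjusted p = 0.0597).
Meig1, Spata33, Tex35 and Tcte3, of the same group and among the 12 genes with the smallest p, also had all 4 arrays below 0. Meig1 carries cargo along the manchette, the microtubule skirt on which tail parts travel, and had a ratio of -0.55 (adjusted p = 0.211). Spata33, which in the mouse ties calcineurin to sperm mitochondria, had -0.46 (adjusted p = 0.222), with the 4 arrays between -0.528 and -0.383. Tex35 had -0.35 (adjusted p = 0.223). Tcte3, a dynein light chain, had -0.39 (adjusted p = 0.257). None of the 4 passed the test. Spata19, a protein of the mitochondrial sheath, had all 4 arrays below 0 but a spread from -1.69 to -0.315 and a ratio of -0.77 ± 0.45.
Other tail genes are given as examples chosen after their values were seen. Tctex1d2, a dynein light chain, had a ratio of -0.28, with all 4 arrays below 0. Spag17 and Spag6l, of the central microtubule pair, had ratios of 0.00 and -0.08, and Spag1, which helps assemble dynein arms, had 0.15. Tcte1, of the link between neighbouring microtubule doublets, was highest in the group at 0.25. Odf4, an outer dense fibre protein, had 0.05. None of these passed the test.

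In the sperm head group all 4 tested genes had ratios below 0, against 47.5% of all features. Their median was -0.57, and none was called. Ccin had -0.708, -1.131, -0.067 and -0.498. Its 4 arrays were all below 0 but spread widely, and the ratio of -0.60 ± 0.29 had an adjusted p of 0.740. Spata16, which in humans is known as a gene of round-headed sperm, had a ratio of -0.74 ± 0.26 with array 2 above 0. Spata46 had -0.53 with array 1 above 0, and Tex101, a surface glycoprotein of germ cells, had -0.03.
The 3 tested genes of meiosis and germ cell division, Tex15, Tex19.2 and Spag5, had a median of -0.20. Tex19.2 had the lowest ratio of all 74 genes, -1.08 ± 0.60. That value came from array 3, at -4.58, while the other arrays lay between -0.308 and 0.491.
The 14 tested genes with general cell functions were centred on 0, with 7 below and 7 above and a median of -0.01. They include Spag9, a scaffold of stress kinase signalling, Tex264, a receptor for the turnover of endoplasmic reticulum, Tsnax, the partner of translin, and the Tspyl genes, of the nucleosome assembly family. Within this group Spata7, a ciliary protein known from the retina, stood lowest at -0.63 ± 0.19 with all 4 arrays below 0 (adjusted p = 0.290). Spata2 stood highest at 0.60 ± 0.62, with arrays from -0.981 to 1.68. Of its 4 spots, 2 had a ratio of whole numbers no larger than 5, as dim spots can. Spots of this kind also occurred in other genes, among them Spata19, Tex19.2 and both probes of Spata7.
Another 21 tested genes were given no role, with a median of -0.21. Of these, 15 were below 0, against 47.5% of all features. The 1 gene called was Tex13a, against 0.699% of all features called lower. Spata4 had all 4 arrays between -0.732 and -0.321 and a ratio of -0.47 (adjusted p = 0.195). Spata17 had -0.57, with array 2 above 0 (adjusted p = 0.288), and Tcp10a had -0.36, with all arrays below 0 (adjusted p = 0.299). Spag11a, a defensin-like gene of the epididymis, stood alone at 0.16, with arrays from -1.20 to 1.73. The groups were put together by known function, and their membership was revised after values had been seen, so they describe the set and test nothing.

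**Figure D2:**
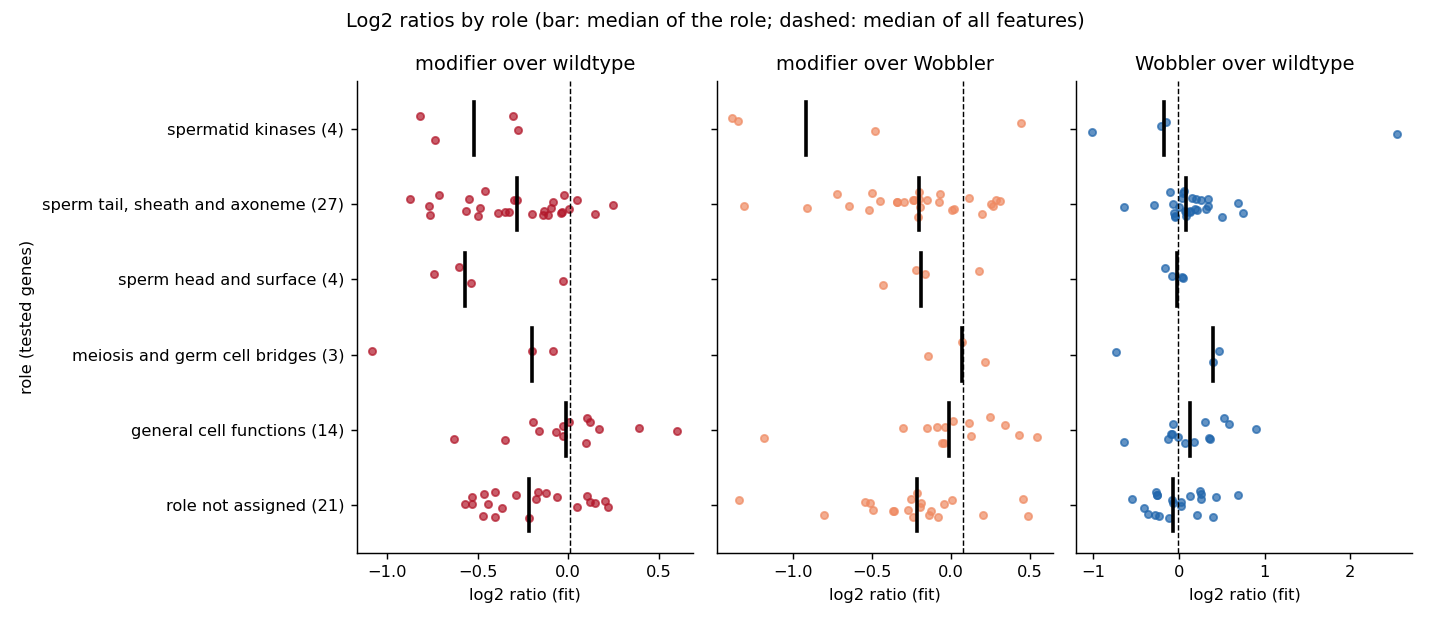
Fitted log2 ratios of the tested genes by role, with the number of genes in brackets, a black bar for the median of the role and a dashed line for the median of all features, in the 3 pairings on separate axes. In Wobbler modifier over wildtype the bars of the kinases (-0.52), the tail (-0.28) and the head (-0.57) lie left of the dashed line, and that of the general genes (-0.01) lies beside it.

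Over the whole set, 56 of 74 genes (75.7%) had a ratio below 0 in Wobbler modifier over wildtype, against 47.5% of all features, and 18 of 74 (24.3%) were above 0, against 52.5%. With a value on every array, 24 of 73 genes (32.9%) had all 4 arrays below 0, against 10.4% of all features, and 4 of 73 (5.48%) had all 4 above 0, against 8.69%. At an unadjusted p under 0.05, 19 of 74 genes (25.7%) were lower, against 5.22% of all features, and 0 were higher, against 2.11%. The median of the 74 genes was -0.20, with a middle range from -0.47 to -0.02. Over all features the median was 0.01, with a middle range from -0.14 to 0.14.
On each of the 4 arrays the median of the genes of the set lay below that of all features, by 0.321, 0.155, 0.098 and 0.261, in the order of the arrays. The medians of all features were 0.163 and 0.131 on arrays 1 and 2 and -0.188 and -0.098 on the dye-exchanged arrays 3 and 4. The sign of the whole array thus moved with the dye, and the set lay below it in both orientations.
Some markers of other cells and stages were lower in the same comparison, mainly those of the late spermatid and Leydig lists. Of 33 measured genes of a late spermatid list, 13 were called lower, against 0.699% of all features, and 0 higher. All 33 had ratios below 0, against 47.5% of all features, with a median of -0.76. Among them were Smcp at -1.12, Oaz3 at -1.28 and Spz1 at -1.33. The cell type lists were chosen with earlier results of these data known, so their counts describe these values and test nothing. Of 10 measured Leydig cell genes, 2 were lower, Cyp17a1 at -2.03 and Ephx1 at -0.77, and the median was -0.63. The lists of the meiotic spermatocyte (1 of 14 lower, Syce2), the macrophage (1 of 11 lower, Tyrobp), the acrosome (0 of 12), the spermatogonium (0 of 12), the Sertoli cell (0 of 16) and the epididymis (0 of 6) had medians of -0.01, -0.12, -0.20, 0.08, -0.04 and -0.17, and none had a gene called higher. Summed levels cannot be given from ratios, and the part of these cell types in the ratios of the set was not tested.

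**Figure D3:**
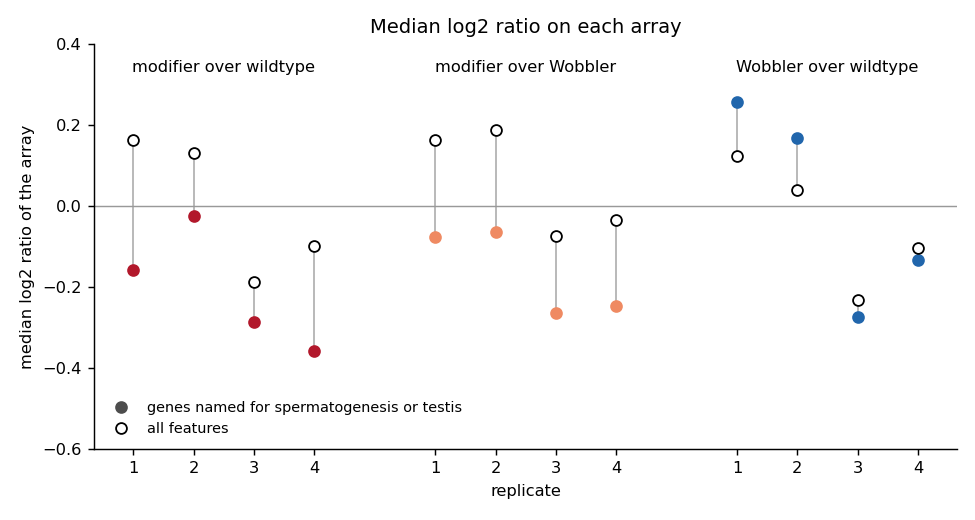
Median log2 ratio on each of the 12 arrays for the genes of the set (filled) and for all features (open), with replicate number on the x axis. The filled point lies below the open one on all 8 arrays with Wobbler modifier RNA. In Wobbler over wildtype it lies above on arrays 1 and 2 and below on arrays 3 and 4.

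The second comparison set Wobbler modifier testis against Wobbler testis, which share the Wobbler mutation as the label is read here. No gene of the set passed the threshold, against 0.414% of all features called in either direction, 0.299% lower and 0.115% higher. At an unadjusted p under 0.05, limma gave 14 of 74 genes (18.9%) lower, against 4.47% of all features, and 2 of 74 (2.7%) higher, against 7.03%.
Tex13a had -0.351, -0.158, -0.765 and -0.788 and came closest, with a ratio of -0.52 ± 0.10 (SE, 4 arrays) and a limma adjusted p of 0.0601. Ropn1 had -0.655, -0.858, -1.054 and -0.318, a ratio of -0.72 ± 0.15 and an adjusted p of 0.0881. Tex43 had all 4 arrays between -1.08 and -0.319, a ratio of -0.65 ± 0.14 and an adjusted p of 0.0957. All 3 genes were thus below 0 on every array of both comparisons. These comparisons share the Wobbler modifier genotype and the fit, so their values are set side by side and not counted as separate evidence.
Tssk2 had a ratio of -0.48 (adjusted p = 0.230), with all arrays below 0. The other kinases did not share a sign. Tssk4 had -1.35 from 3 arrays, at -0.285, -1.559 and -1.779. Of these 3 spots, 2 had a ratio of whole numbers no larger than 5, as dim spots can. In this pairing the same held for other genes. Among them were Ropn1, Tex48 and Tssk6, on 1 of 4 arrays each, and probe 14889 of Tsga10, on 1 of its 2 arrays. Tssk3 had -1.39 with arrays from -4.35 to 1.20, and Tssk6 had 0.44 with 3 arrays above 0. The median of the 4 kinases was -0.92, which leaned on that Tssk4 value, and none was called.
Among tail genes, Spata33 had -0.45 (adjusted p = 0.209) and Tsga10, of the fibrous sheath, had -0.91 (adjusted p = 0.178), with all 4 arrays below 0 for both. The Tsga10 values average 2 probes that differed. Its probe 10359 gave -1.169, -0.155, 0.103 and -0.795, so array 3 was above 0. Probe 14889 had values on 2 arrays only, -0.237 on array 2 and -3.101 on array 3. Spata19 had -1.31 ± 0.45, where array 2 at -3.258 stood apart from the others at -0.706 to -0.607. Without array 2 the fit with its dye term gave -0.57, which lies outside the range of those other arrays. Of the 27 tail genes 19 were below 0, against 38.4% of all features, with a median of -0.20. The 4 head genes had a median of -0.19 and the 3 meiotic genes one of 0.07.
Genes without a role included Tcp11x2, with arrays from -2.70 to -0.282 and a ratio of -1.34 (adjusted p = 0.155), Tex48 at -0.49 (adjusted p = 0.236) and Spata17 at -0.55 (adjusted p = 0.274). Spag9, among the general genes, was the one with the smallest p above 0, at 0.44 (adjusted p = 0.315), with all 4 arrays above 0.
The median of the 74 genes was -0.17, against 0.08 over all features, and 51 of 74 (68.9%) were below 0, against 38.4% of all features, while 23 of 74 (31.1%) were above 0, against 61.6%. All 4 arrays were below 0 for 17 of 72 genes (23.6%), against 6.13% of all features, and above 0 for 3 of 72 (4.17%), against 11.2%. The set lay below the median of all features by 0.238, 0.253, 0.191 and 0.215 on the 4 arrays. In the late spermatid list 7 of 33 genes were called lower, against 0.299% of all features, and the median was -0.51. Among them were Spz1, Tnp1 and Smcp at -1.30, -1.13 and -0.86. Here, too, the list was chosen with earlier results of these data known. In the Leydig list Cyp17a1 was lower at -1.39, and no gene was called in the other lists. Their part in the ratios of the set was not tested here either.

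**Figure D4:**
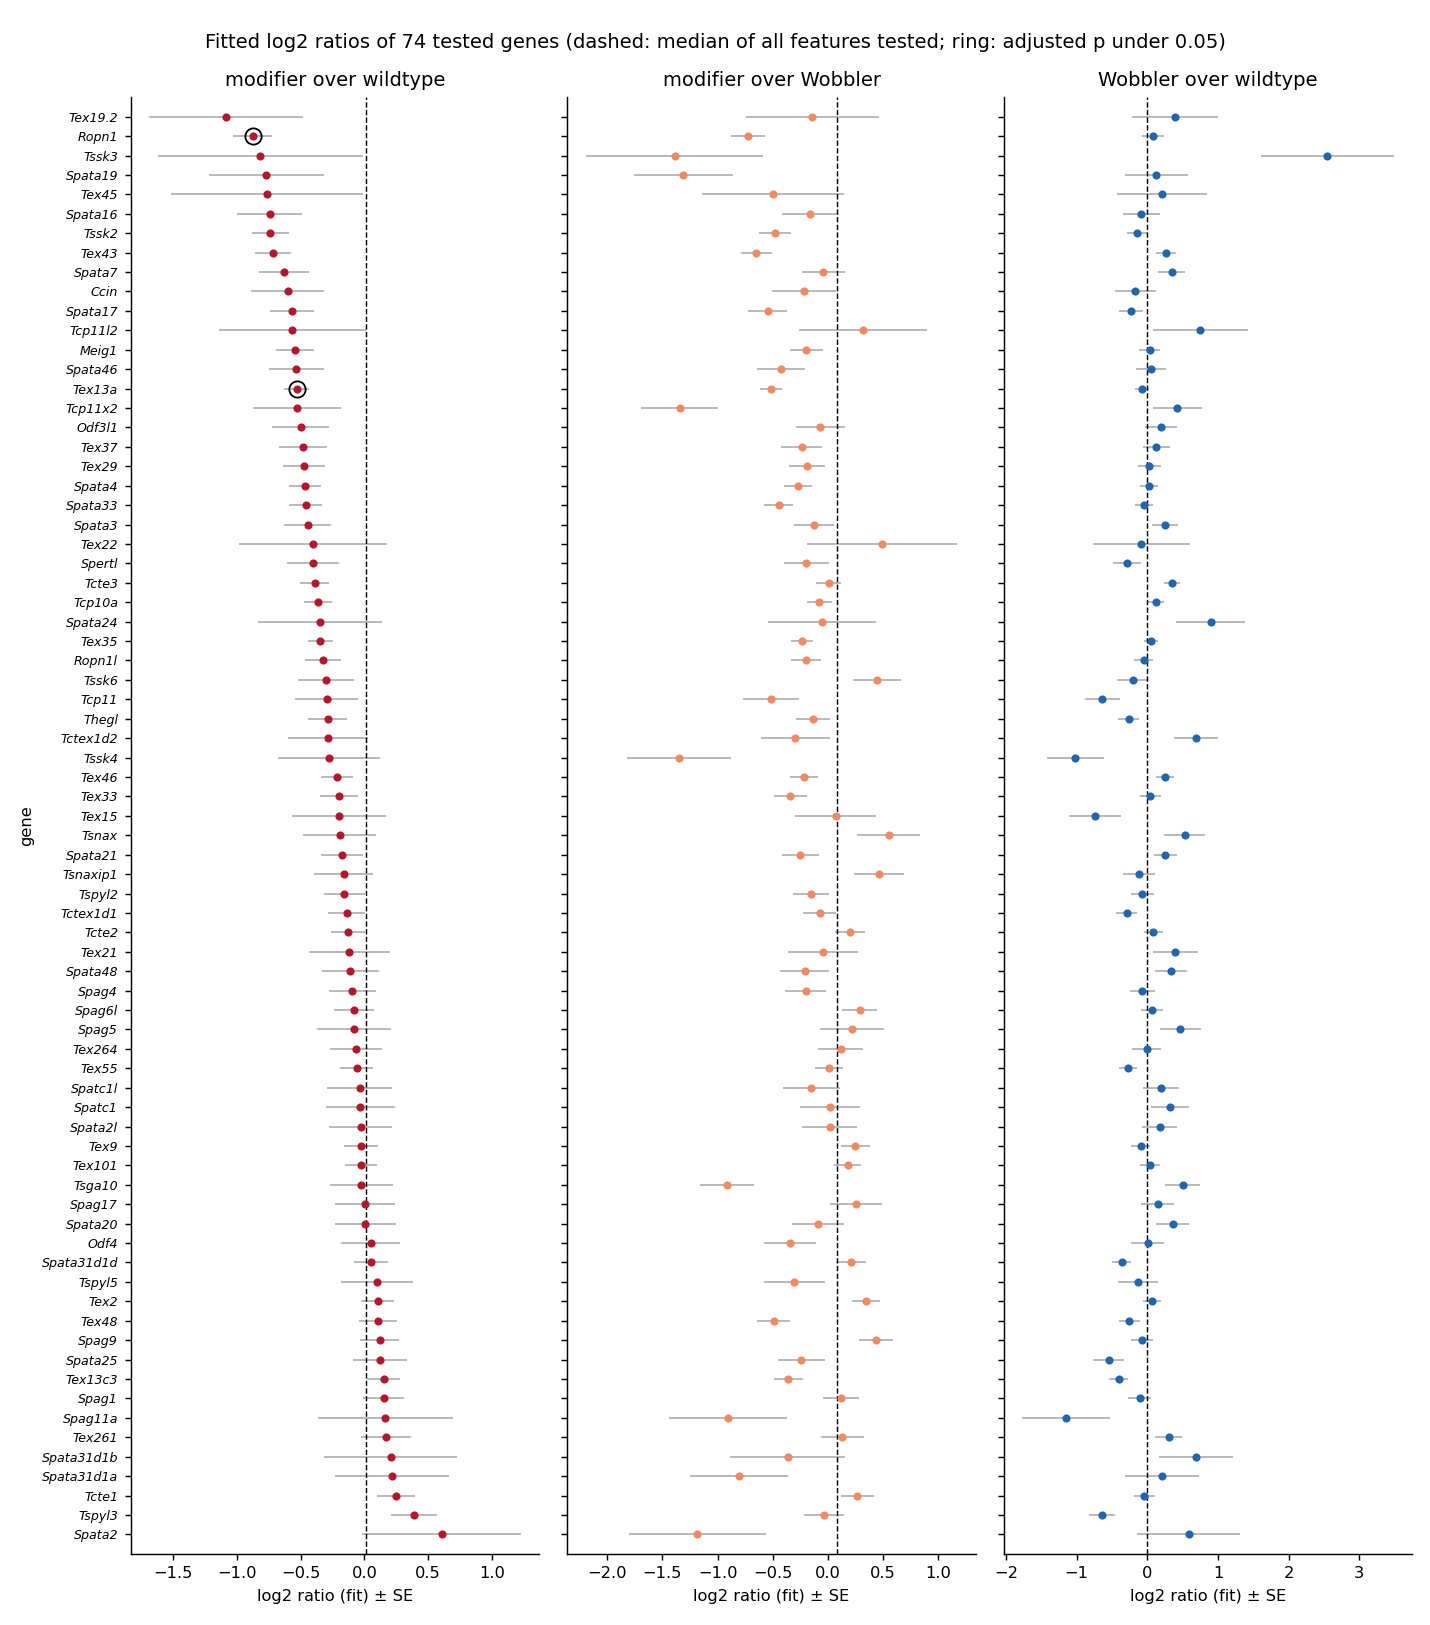
Fitted log2 ratio with its SE for the 74 tested genes in the 3 pairings, ordered by Wobbler modifier over wildtype, each panel with its own log2 axis. The dashed line is the median of all features, and rings mark the 2 genes called, Ropn1 and Tex13a, in the left panel.

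The third comparison asked how Wobbler testis differed from wildtype testis. No gene of the set was called, against 0.306% of all features in either direction, 0.183% lower and 0.122% higher. At an unadjusted p under 0.05, limma gave 6 of 74 genes lower (8.11%, against 8.47% of all features) and 2 higher (2.7%, against 7.22%).
The genes closest to the threshold in the other comparisons had small ratios here. Ropn1 had 0.558, 0.252, -0.275 and -0.228, above 0 on arrays 1 and 2 and below 0 on the dye-exchanged arrays, with a ratio of 0.08 ± 0.15. Tex13a had 0.094, 0.230, -0.228 and -0.397, split the same way, with a ratio of -0.08 ± 0.10. Tssk2 had -0.15 and Tex43 had 0.26.
The smallest p belonged to Tspyl3, of the nucleosome assembly family, with -0.655, -0.818, -1.04 and -0.062 and a ratio of -0.64 ± 0.18 (adjusted p = 0.160). It was followed by Tex13c3, at -0.41 with all arrays below 0 (adjusted p = 0.208), and by Tcte3, at 0.34 with all arrays above 0 (adjusted p = 0.215). Tssk3 had the highest fitted ratio of the set, 2.55 ± 0.94 (limma adjusted p = 0.259). Its 3 arrays, at 5.90, 1.12 and -0.592, did not share a sign and had a mean of 2.14. The fit also uses a dye term shared with the other pairings, so its ratio can differ from the mean of the arrays. Without array 1 only the dye-exchanged arrays were left, and the fitted ratio was 0.94. Spag11a had the lowest fitted ratio, -1.15 ± 0.62, also from 3 arrays, all below 0.
Other genes among the smallest p were Spata31d1d at -0.36, Spata25 at -0.55, Tcp11 at -0.64, Tssk4 at -1.02, Tctex1d2 at 0.69, Tex55 at -0.28, Tsga10 at 0.50 and Tex46 at 0.26, with adjusted p from 0.256 to 0.354. Most of these ratios leaned on 1 array. Without array 2 the fitted ratio was 0.14 for Tctex1d2 and 0.14 for Tex46. Without array 3 it was -0.26 for Spata25, -0.30 for Tcp11, -0.17 for Tex55 and 0.20 for Tsga10, and without array 4 it was -0.43 for Tssk4. The 2 probes of Tcp11 also differed, with probe 9782 at -1.22 and probe 11604 at -0.05. Array 2 of this pairing had the widest spread of the 12 arrays, with an SD of 1.42 over all features. Spata31d1a, Spata31d1b and Spata31d1d are near-identical copies, and their probes may share RNA.
The median of the set was 0.05, against -0.01 over all features, with 31 of 74 genes (41.9%) below 0, against 50.8%, and 43 of 74 (58.1%) above 0, against 49.2%. All 4 arrays were below 0 for 6 of 67 genes (8.96%), against 10.8% of all features, and above 0 for 1 of 67 (1.49%), against 6.03%. The set lay above all features by 0.134 and 0.127 on arrays 1 and 2, and below by 0.042 and 0.029 on arrays 3 and 4. Kinase, tail and head genes had medians of -0.18, 0.09 and -0.02. Of the 27 tail genes 20 were above 0, against 49.2% of all features, and 7 were below. The late spermatid and Leydig lists had medians of -0.09 and 0.09, with no gene called.

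The 3 pairings close a loop, so Wobbler over wildtype measured directly was set against the value computed through Wobbler modifier testis. The difference passed the limma test for 0 of 74 genes, and for 0.0272% of all 14729 features. The smallest p were those of Tex13c3 (direct -0.41, indirect 0.51, adjusted p = 0.473), Tcte3 (direct 0.34, indirect -0.39, adjusted p = 0.510) and Tspyl3 (direct -0.64, indirect 0.43, adjusted p = 0.574), whose direct and indirect ratios were opposite in sign. A p that misses the threshold does not show that the 2 routes gave the same value.

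Several genes were measured by more than 1 probe, and their probes did not always go together. Spata20, a thioredoxin-like protein, averaged 0.01 in Wobbler modifier over wildtype. Its probe 9632 gave -0.797, -0.690, -0.817 and -0.808, all below 0, while probe 14461 gave 2.449 and 2.345 on arrays 1 and 2 and had no value on arrays 3 and 4. Fitted as a feature of its own, probe 9632 had a ratio of -0.78 and a limma adjusted p of 0.0132.
Spata3 had a ratio of -0.45 (adjusted p = 0.583) as a mean of 3 probes. Its probe 13125 gave -1.047, -0.671, -1.143 and -0.644, with a ratio of -0.88 and an adjusted p of 0.0292 when fitted alone, while probes 12307 and 14065 averaged -0.04 and -0.30. Tcp11 was split in a like way, with probe 11604 between -0.673 and -0.508 and probe 9782 between -0.981 and 0.892.
Tcp10a had probe 11562 at a mean of -0.64 and probe 9588 at -0.09, and Tex33, of the sperm tail, had probe 13755 at -0.60 and probe 9369 at 0.20. Spata7 had both probes below 0, at -0.94 and -0.32. Tsnax had 1 of 3 probes above 0, at 0.17, and the others at -0.15 and -0.60.
In the other pairings, too, probes of a gene differed in sign. In Wobbler modifier over Wobbler, Tsnax probe 115 averaged 1.5 over 3 arrays and probe 16112 averaged -0.92 over 2, at -2.496 and 0.65. Tex22 probes 9280 and 12426, each measured on 2 arrays, averaged 0.85 and -0.36, and probe 9280 itself gave 3.252 and -1.559. Spata20 probe 9632 averaged -0.46, while its probe 14461 gave 2.667 on 1 array. Tex33 probes 13755 and 9369 averaged -0.69 and 0.01. Spata3 probes 13125, 14065 and 12307 averaged -0.59, -0.18 and 0.41. In Wobbler over wildtype, Tsga10 probe 14889 averaged 1.26 and probe 10359 averaged -0.25, so its positive mean rested on probe 14889. Tsnax probe 115 averaged 2.15 over 3 arrays, while its other probes had -0.36 on 1 array and -0.21 over 4. Thegl had probes at -0.61 and 0.09.
For 4 further genes the higher probe mean of Wobbler over wildtype came largely from array 2. Tex21 had 1.06 and -0.27, but its probe 11906 gave 4.626 on array 2 and -0.400 to 0.236 on the others. Spata21 had 0.55 and -0.04, with probe 11255 at 1.905 on array 2 and -0.174 to 0.373 on the others. Tex261 had 1 of 3 probes at 0.79, with 2.896 on array 2 and -0.431 to 0.622 on the others. Spata3 probe 12307 had 2.767 on array 2 and 0.471 on array 4, with no value on the others, while its other probes averaged -0.18 and 0.08.
With each probe as a feature of its own, 5 genes were called in Wobbler modifier over wildtype, Ropn1, Tex13a, Tssk2, Spata20 and Spata3, against 0.915% of all probe-level features. The 5 are genes with at least 1 called probe, while the share counts probes, so they cannot be compared directly. The probe sequences were not used here, and which transcripts each probe binds was not tested.

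**Figure D5:**
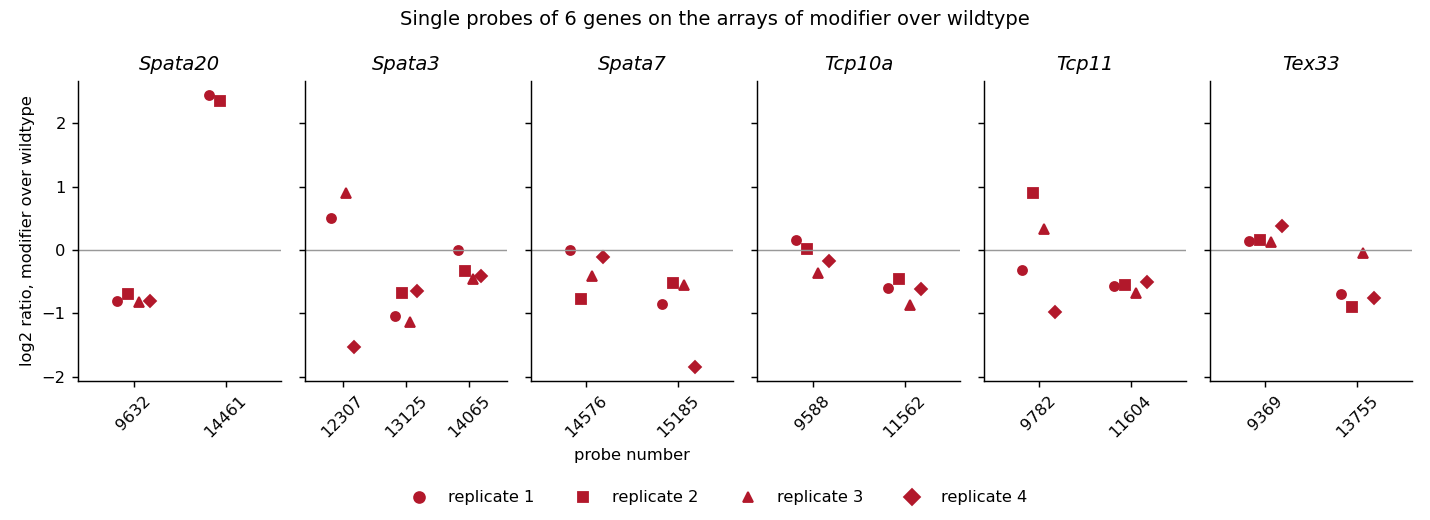
Log2 ratios of Wobbler modifier over wildtype for each probe of 6 genes with several probes, with a symbol for each of the 4 arrays; the genes were picked after their values were seen. Probe 9632 of Spata20 lies between -0.817 and -0.690, and probe 14461 of the same gene lies above 2 on the 2 arrays that measured it.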

How the data were processed

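The authors deposited 1 log2 ratio per spot for each of 12 arrays (the base was inferred from the numbers themselves); how spots were scanned, corrected and normalized is not given in the sources used here. On each array 1 repeated top value, log2(100000) above that array's shift, was read as a code and treated as missing (22 to 165 spots). Ratios of the dye-exchanged arrays, per the labels' dyes, were multiplied by -1. Of 20355 probes 14030 had 1 symbol in the platform annotation, 5 several and 6320 none; a gene table of GRCm38.p6 held all but 36 of the gene identifiers and changed 0 symbols. Probes of a gene were averaged per array, and a feature was tested where each pairing measured it on 3 or 4 arrays, which kept 14729 of 16255. Arrays held 18325 to 19584 usable spots, and the number of arrays limits the precision.

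limma 3.58.1 (lmFit, eBayes; R 4.3.3) was fitted over all 12 arrays with 1 mean per pairing and 1 dye term, and was tested on simulated data. Alternatives changed centring, scaling, dye term, replicate block, model, weights, filter, codes, probes, direction and arrays. Named genes are those past the threshold, the 12 of smallest p per comparison, the kinases, at most 3 per cell type list, and genes whose probe means differ in sign with 1 beyond 0.5; the examples given for other roles were chosen after their values were seen, as were the promoters and the genes in the plot of probes. The genes and lists were chosen with earlier results of these data known.

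Same-numbered arrays were checked for shared deviations. Their correlations ran from -0.029 to 0.065, so the numbers were not taken to pair arrays.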

Additional observations from a re-analysis of the deposited data

Results flagged for a closer look

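In 44 groups of 4 arrays of the named genes, the highest or lowest array was compared with the rest by Dixon's ratio, at a critical value that chance passes in about 1 of 20 groups. An array stood apart in 5 of them. For Ropn1 in Wobbler modifier over wildtype, array 3 gave -1.131 and the others -0.827 to -0.773. For Spata19 in Wobbler modifier over Wobbler, array 2 gave -3.258 and the others -0.706 to -0.607. In Wobbler over wildtype, Spata31d1d had -0.706 on array 3 against -0.273 to -0.193, Tex55 had -0.627 on array 3 against -0.171 to -0.140, and Tctex1d2 had 2.384 on array 2 against -0.094 to 0.265.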

How the results depend on the processing

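The 2 calls in Wobbler modifier over wildtype depend on the processing. The number of genes of the set called there was 4 with arrays centred on their medians (0.822% of all features), 11 with arrays also scaled (3.28%), 14 with array weights (4.81%), 5 with 2 genotype coefficients for the loop (1.52%), 4 with a value required on all 12 arrays (0.950%) and 5 with each probe a feature of its own. It was 0 with no dye term, with each comparison fitted alone, without the arrays of Wobbler over wildtype, and with values read as channel 1 over channel 2; it was also 0 with the replicate block. It was 0 without any 1 of the pairing's own arrays, and 0 to 3 without 1 array of the others. In Wobbler modifier over Wobbler the number was 1 with arrays centred (0.604% of all features), 1 with arrays also scaled (0.496%), 3 with 2 genotype coefficients (1.41%) and 1 with all 12 arrays required (0.696%); it was 0 to 1 with 1 array left out. In Wobbler over wildtype it stayed 0 in every alternative run. Alternatives on the arrays of other pairings and on the loop were chosen after seeing the data.

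The medians of the set stayed below 0 in both comparisons with Wobbler modifier testis except when values were read as channel 1 over channel 2 (0.12 against wildtype, 0.14 against Wobbler). That reading mixes both directions in each mean. Under it the ratio over wildtype turned to 0.10 for Ropn1, 0.22 for Tex13a, 0.19 for Tex43, 0.12 for Spata4, 0.29 for Meig1, 0.0048 for Spata33, 0.17 for Tex35, 0.099 for Tcte3, 0.44 for Spata17, 0.097 for Spata7, 0.14 for Tcp10a, 0.098 for Tssk3 and 0.30 for Tssk4. Over Wobbler it turned to 0.26 for Tex13a, 0.21 for Tex43, 0.15 for Tcp11x2, 0.23 for Tsga10, 0.049 for Tssk2, 0.14 for Spata17, 0.25 for Tssk4, 1.25 for Tssk3 and -0.54 for Tssk6. In Wobbler over wildtype it turned to 0.029 for Tex13c3, 0.13 for Spata31d1d, 0.55 for Spata25, 0.19 for Tcp11, 0.56 for Tssk4, 0.12 for Tex55 and -0.36 for Tsga10. Tssk6 in Wobbler over wildtype ran from -0.32 to 0.0051 with 1 of its arrays left out, the last without replicate 3. With no intensities, dim spots could not be told from bright ones by signal.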
